A study of Mus musculus with 6 samples.

Results

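Transcripts of mitochondrial ribosomal proteins were examined in livers of mice given a fruit extract or water. The genes were taken by name alone: of 17738 genes with values, 78 carried a symbol that begins Mrpl or Mrps followed by a digit, 49 of them Mrpl (large subunit by symbol) and 29 Mrps (small subunit by symbol). All mice belonged to ICR, an outbred stock. One group received an ethyl acetate fraction prepared from a water-soluble extract of Chebulae Fructus (dried Terminalia chebula fruit) by gavage for 1 week at a daily dose of 1 g/kg. The other received water by the same route, 10 ml/kg, also for 1 week. Each group had 3 libraries of poly(A)-selected liver RNA, numbered 1 to 3 within water and within extract. Neither age nor sex is in the labels, and they do not say that each library is a separate animal, so the spread between libraries may be partly technical.

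The mitochondrial ribosome, or mitoribosome, translates the few messages encoded by mitochondrial DNA, all of which specify subunits of the respiratory chain and ATP synthase. Its ribosomal RNAs come from the mitochondrial genome, while every protein subunit is encoded in the nucleus, made in the cytosol and imported. Some subunits descend from bacterial ribosomal proteins and others are specific to mitochondria. Hepatocytes are rich in mitochondria, and the same organelles carry out much of the liver's fatty acid oxidation, ketone body synthesis and urea synthesis. Names do not always give the place of a subunit: the proteins of Mrps18a and Mrps30 sit in the large subunit of the mammalian mitoribosome, and that of Mrps36 is an adaptor of the 2-oxoglutarate dehydrogenase complex and is not a ribosome subunit.

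Values are FPKM, fragments scaled to transcript length and library size, a unit inferred from the table. They summed to between 517984 and 583245 per library, and read totals and counting error are unknown. The limma test on log2(FPKM + 1) covered 10282 genes that had 1 FPKM or more in 3 or more libraries, and all 78 genes were among them. The hepatocyte marker Alb had 45371 to 71236 FPKM. Of 4 hepatocyte markers Alb (log2 fold change -0.38), Cps1 (-0.14) and Ttr (-0.11) had negative and Apoa1 (0.21) a positive fold change, none with unadjusted p below 0.05. Their summed level, most of it Alb, was 76522 to 82389 FPKM in water and 59856 to 72246 in extract libraries. All 8 Kupffer cell (liver macrophage) markers examined had positive fold changes, 6 of them with unadjusted p below 0.05 by limma. Over all genes tested, 6.50% were higher at that threshold. None of the 8 passed an adjusted p of 0.05 by limma, the smallest being 0.0882. Their summed level was 106 to 128 FPKM in water and 175 to 263 FPKM in extract libraries. All 5 sinusoidal endothelial markers had negative fold changes, none with unadjusted p below 0.05 by limma. Their sums were 79.1 to 101 FPKM in water and 63.5 to 86.8 FPKM in extract libraries. The sums of 4 stellate cell markers were 88.9 to 105 and 99.5 to 131 FPKM. The 3 erythroid markers summed to 720 to 2104 FPKM in water and 479 to 644 in extract. Hba-a1 was lower without overlap (log2 fold change -1.22, unadjusted p = 0.00863 by limma). Alas2 had a positive log2 fold change of 0.87, and Hbb-bt was listed at 0 in water 3 and extract 2. Lymphocyte marker sums were at most 2.23 FPKM in any library, and S100a8, a neutrophil marker, was listed at 0 in extract 1. In such bulk tissue, fewer cells of a type and less RNA per cell cannot be told apart. What these shifts contribute to the values below was not tested.

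The 78 transcripts were present in every library over a wide range of levels. Mean FPKM over the 6 libraries ran from 1.93 for Mrpl19 to 87.2 for Mrpl12, a 45.2-fold range on a per-length scale. Of the 78, 12 lay below 10 FPKM, 60 between 10 and 50 and 6 above 50. The median was 23.5 FPKM for Mrpl and 21.8 FPKM for Mrps genes. The order of the genes was nearly the same in both groups: Spearman's rho between water and extract means was 0.988 across the 78 genes, which share libraries and are not independent replicates.

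**Figure D1:**
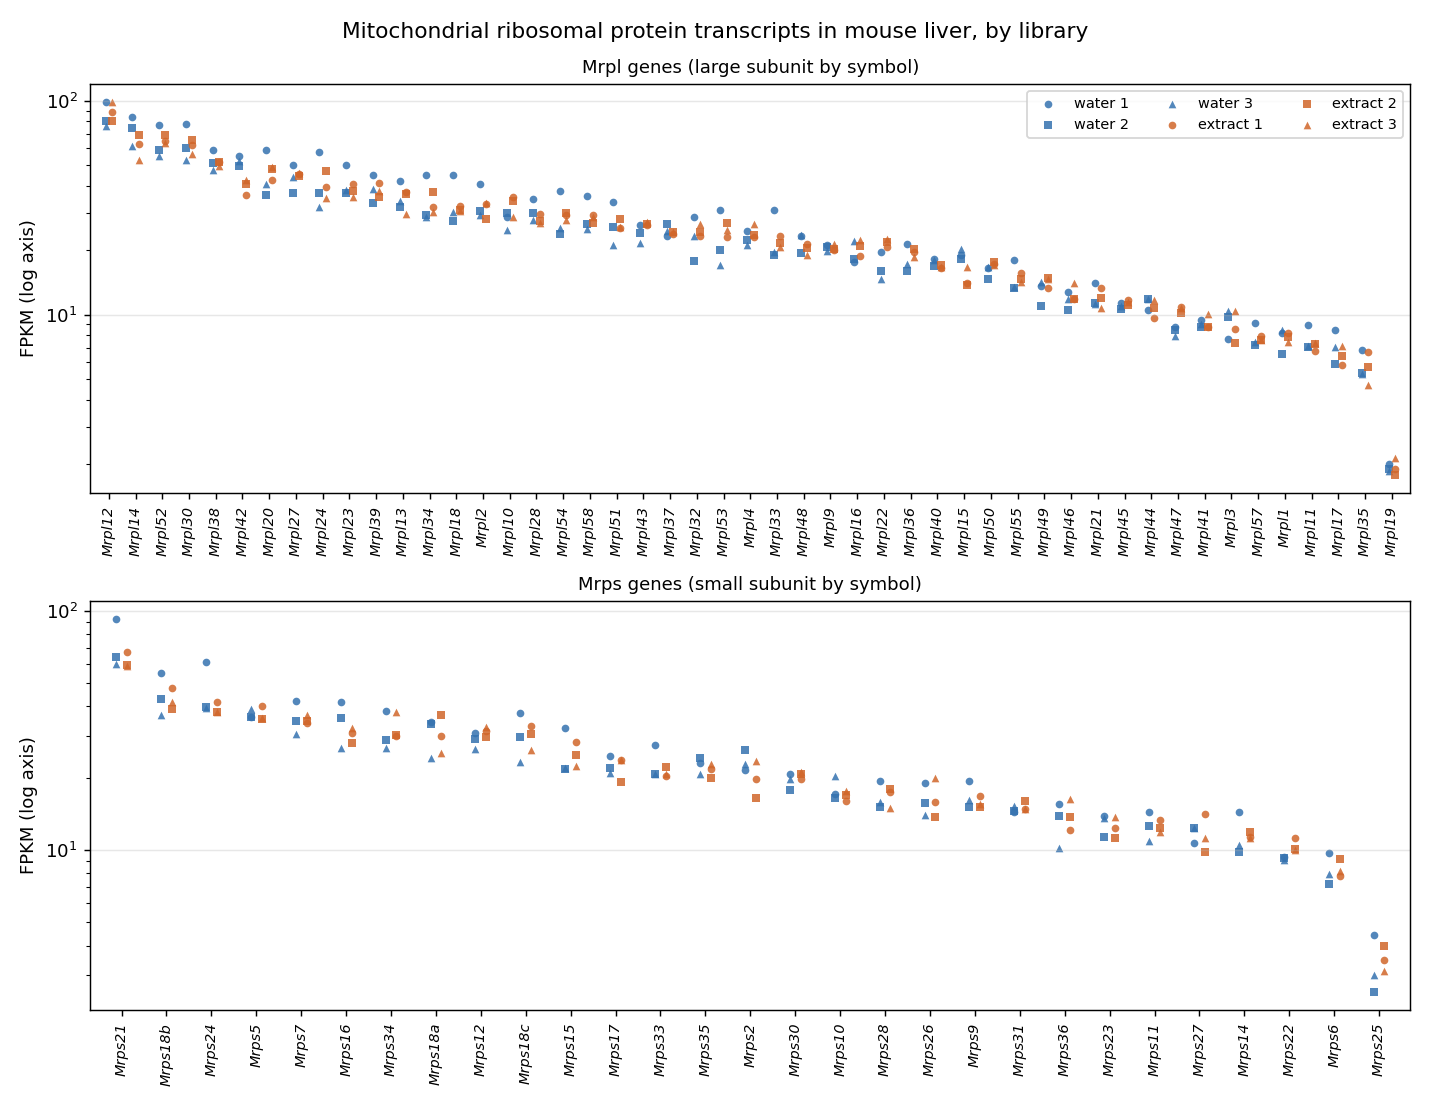
FPKM on a log axis for each of the 49 Mrpl genes (upper panel) and 29 Mrps genes (lower panel), ordered by mean level; blue symbols are the 3 water and orange symbols the 3 extract libraries, 1 point per library. Mrpl12 was highest at a mean of 87.2 FPKM and Mrpl19 lowest at 1.93, and the blue circle (water 1) stands above the other 2 water libraries in 62 of the 78 genes.

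Mrpl12 encodes the flexible stalk protein that recruits translation factors to the large subunit. It had 98.4, 80.5 and 76.6 FPKM in water 1, 2 and 3 and 89.1, 80.6 and 98.3 in extract 1, 2 and 3. The groups overlapped completely. Next in level came Mrpl14, a protein of the face where the subunits meet, with 83.7, 74.5 and 61.1 FPKM in water and 62.5, 68.9 and 53.0 in extract. Mrps21, of bacterial descent, led the Mrps genes with 92.1, 63.8 and 60.1 FPKM in water and 67.0, 59.2 and 58.9 in extract. In both genes water 1 held the highest value and extract 3 the lowest. Mrpl52, a mitochondria-specific subunit, had 77.3, 58.9 and 55.2 FPKM in water and 64.8, 69.5 and 63.4 in extract, so all extract values fell inside the water range.

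The comparison of extract with water asked whether these transcripts differed after a week of treatment. None of the 78 passed limma's Benjamini-Hochberg threshold of 0.05 over all genes tested, where 5 of 10282 genes (0.0486%) did; the smallest adjusted p was 0.294. Of their fold changes, 36 were positive and 42 negative, with a median log2 of -0.01. Over all genes tested, 5908 were positive and 4374 negative, with a median of 0.03. At unadjusted p below 0.05, 4 of the 78 (5.13%) differed, 2 higher and 2 lower, where the share over all genes was 10.3% (6.50% higher and 3.82% lower). All extract libraries lay above all water libraries for 5 genes (6.41%, against 10.0% of all genes tested) and below them for 2 (2.56%, against 5.88%). The 5 were Mrpl22, Mrpl47, Mrpl43, Mrpl50 and Mrps22. Of these Mrpl43 and Mrpl50, both mitochondria-specific, are named after their values were seen. Mrpl43 had 24 ± 2.23 FPKM in water and 26.7 ± 0.52 in extract, and Mrpl50 had 16 ± 1.15 and 17.3 ± 0.28 (SD, n = 3 each). The annotation places 385 exon bases of Mrpl43 opposite Twnk, which had 10.2 ± 1.51 FPKM in water and 7.75 ± 0.865 in extract. The log2 fold change of Twnk was -0.35 (unadjusted p = 0.0378 by limma). Reads of Mrpl43 and Twnk may be mixed where the counting did not use strand. Single log2 fold changes ran from -0.39 to 0.36, with quartiles at -0.07 and 0.06. Across all genes tested the quartiles lay at -0.09 and 0.15.

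The precision sets what could be seen. The median standard error was 0.13 on the log2 scale and the median half-width of the 95% interval 0.31. The interval lay within 0.5 of 0 for 63 of the 78 genes and within 1 for all 78, the outermost bounds being -0.65 and 0.66. With 3 libraries per group, differences smaller than these half-widths gave intervals that include 0. The intervals carry no adjustment for the number of genes, so the adjusted threshold asked for larger differences. The interval of Mrpl42 was -0.65 to -0.12, at a limma adjusted p of 0.294. The split by sign depended on scaling and on single water libraries. It was 24 positive and 54 negative when every library was shifted to the same median (median -0.05). Without water 1 it was 59 positive and 19 negative (median 0.09). Without water 2 it was 28 and 50, and without water 3 it was 26 and 52 (median -0.06 in both). Without extract 1, 2 or 3 the positive genes numbered 35, 41 and 40.

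**Figure D2:**
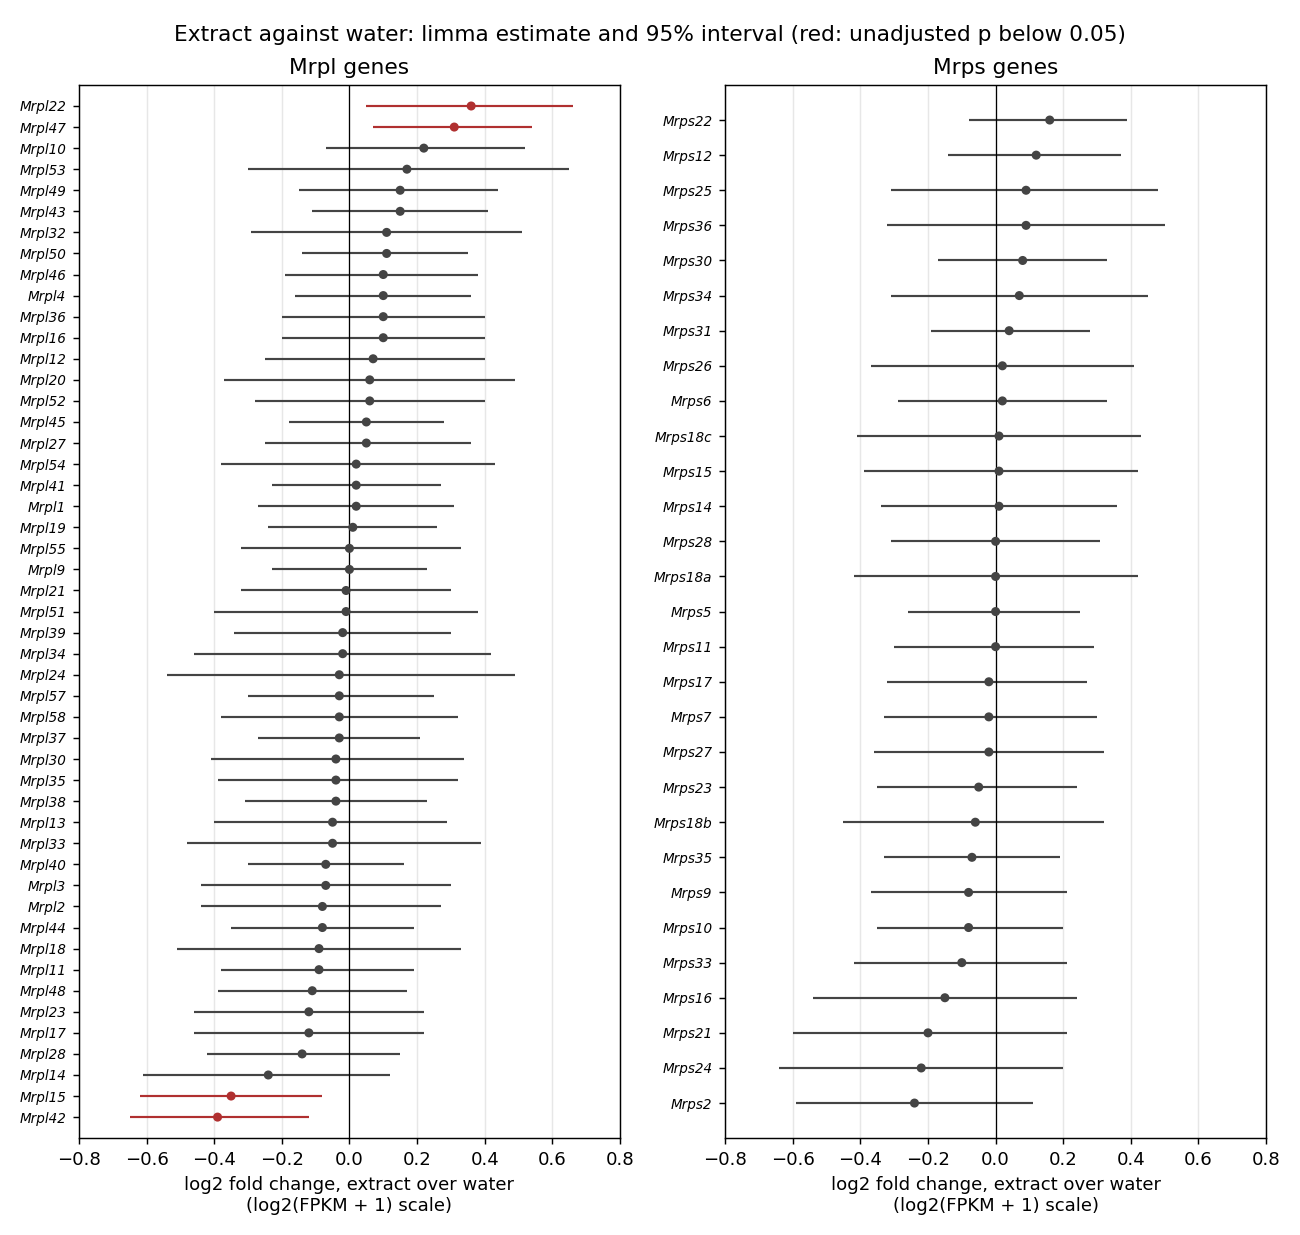
Log2 fold change of extract over water on the log2(FPKM + 1) scale (horizontal axis) for each Mrpl gene (left) and Mrps gene (right), with limma's 95% interval; red marks the 4 genes with unadjusted p below 0.05. These are Mrpl22 and Mrpl47 on the positive side and Mrpl15 and Mrpl42 on the negative side, and the intervals of the other genes include 0.

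The 4 genes with unadjusted p below 0.05 encode large subunit proteins. Mrpl42 encodes a mitochondria-specific subunit and lies on chromosome 10 from 95480805 to 95501949 (gene ID 67270, GRCm38). It had 55.4, 49.5 and 52.1 FPKM in water 1, 2 and 3 and 36.1, 40.7 and 42.8 in extract 1, 2 and 3. Every extract value was below every water value. The means were 52.3 ± 2.94 and 39.9 ± 3.41 FPKM (SD, n = 3 each), a log2 fold change of -0.39 ± 0.12 (SE; limma adjusted p = 0.294, unadjusted p = 0.0106). The unadjusted p stayed below 0.05 without any 1 library except extract 1, where it was 0.0569.

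Mrpl15, whose protein descends from a core protein of the bacterial large subunit, lies on chromosome 1 from 4773198 to 4785750 (gene ID 27395). Its level was 19.0, 18.2 and 20.4 FPKM in water and 14.0, 13.8 and 16.7 in extract libraries. The groups did not overlap (19.2 ± 1.09 against 14.9 ± 1.61 FPKM), and the log2 fold change was -0.35 ± 0.12 (SE; limma adjusted p = 0.35, unadjusted p = 0.0176). Without extract 1, extract 2 or water 3 the unadjusted p was 0.07, 0.0683 and 0.0573.

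Higher in all extract libraries were Mrpl47 and Mrpl22, whose proteins, both of bacterial descent, lie at the tunnel through which the new chain leaves. Mrpl47 (chromosome 3, 32727497 to 32736755, gene ID 74600) had 8.80, 8.44 and 7.95 FPKM in water and 10.9, 10.2 and 10.8 in extract, a log2 fold change of 0.31 ± 0.10 (SE; limma adjusted p = 0.351, unadjusted p = 0.0177). The annotation places 452 exon bases of Mrpl47 opposite Actl6a, a chromatin remodelling subunit that had 5.53 ± 0.696 FPKM in water and 7.25 ± 0.531 in extract (log2 fold change 0.34, unadjusted p = 0.0237). A further 158 exon bases lie opposite Ndufb5, a complex I subunit that had 115 ± 25.2 and 101 ± 4.87 FPKM (log2 fold change -0.16, unadjusted p = 0.351). Whether the counting used strand is not given in the sources used here, so reads of these genes may be mixed. Mrpl22 (chromosome 11, 58170043 to 58179580, gene ID 216767) had 19.70, 16.02 and 14.73 FPKM in water and 20.6, 21.8 and 22.6 in extract. Water 1 came within 1 FPKM of extract 1. The log2 fold change was 0.36 ± 0.13 (SE; limma adjusted p = 0.394, unadjusted p = 0.0268), and 0.47 (unadjusted p = 0.00255) without water 1. Leaving out any 1 of the other libraries except extract 1 put the unadjusted p of Mrpl22 between 0.0672 and 0.092. For Mrpl47 the unadjusted p rose above 0.05 without extract 1 (0.0675) or water 3 (0.0577).

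Promoter sequences show what 3 of these genes, and Mrps12 described below, carry at their starts. Each line gives a window around an annotated start that ends 50 bases after it (RefSeq, GRCm38.p6), 5′ to 3′ on the strand of the gene. For Mrpl22 this start lies inside the gene span given above, which begins at 58170043, and positions are counted from the start of the window used. Capitals mark matches to letters bound by factors known to act on genes for mitochondrial proteins, namely CCGGAAG for GABPA, GCGCANGCG for NRF1 and AANATGGC for YY1, on either strand.
Mrpl42 (chr10:95501900-95502199, minus strand): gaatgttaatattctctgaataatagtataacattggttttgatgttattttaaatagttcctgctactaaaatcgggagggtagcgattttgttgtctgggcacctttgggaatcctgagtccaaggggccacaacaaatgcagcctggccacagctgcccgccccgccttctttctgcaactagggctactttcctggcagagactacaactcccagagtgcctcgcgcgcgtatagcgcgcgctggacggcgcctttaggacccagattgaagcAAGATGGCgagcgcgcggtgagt
Mrpl47 (chr3:32736706-32737005, minus strand): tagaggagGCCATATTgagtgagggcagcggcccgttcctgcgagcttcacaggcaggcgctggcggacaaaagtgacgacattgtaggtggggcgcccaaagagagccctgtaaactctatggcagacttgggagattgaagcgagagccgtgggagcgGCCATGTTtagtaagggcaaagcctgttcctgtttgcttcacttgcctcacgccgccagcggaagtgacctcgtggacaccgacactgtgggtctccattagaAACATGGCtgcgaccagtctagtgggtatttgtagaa
Mrpl22 (chr11:58171414-58171713, plus strand): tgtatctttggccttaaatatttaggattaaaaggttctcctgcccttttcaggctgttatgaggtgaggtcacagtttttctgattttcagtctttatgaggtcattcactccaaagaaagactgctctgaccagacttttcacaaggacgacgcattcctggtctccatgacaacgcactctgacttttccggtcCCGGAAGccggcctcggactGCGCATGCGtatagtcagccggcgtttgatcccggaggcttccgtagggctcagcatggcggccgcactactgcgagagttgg
Mrps12 (chr7:28741772-28742071, minus strand): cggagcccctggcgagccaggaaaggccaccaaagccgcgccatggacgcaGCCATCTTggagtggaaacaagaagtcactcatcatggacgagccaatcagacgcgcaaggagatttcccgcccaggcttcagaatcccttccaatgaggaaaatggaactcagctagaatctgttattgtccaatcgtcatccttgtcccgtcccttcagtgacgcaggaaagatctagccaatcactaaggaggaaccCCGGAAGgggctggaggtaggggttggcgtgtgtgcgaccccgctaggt

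The Mrpl42 window held 1 YY1 match, whose first base lay at 27, counted from the start base as 0. Mrpl47 held 3, beginning at -242, -90 and 13. Mrpl22 held a GABPA match at -53 and an NRF1 match at -33, and Mrps12 a GABPA match at 1 and a YY1 match at -199. The genes with higher and with lower values in extract livers thus both included a window with YY1 letters. Promoter windows were matched for 69 of the 78 genes, some with more than 1 start. Of these 69, 26 (37.7%) held the GABPA letters, 16 (23.2%) the NRF1 letters and 21 (30.4%) the YY1 letters, and 48 (69.6%) held at least 1 of the 3. Among the 8291 tested genes with a window the shares were 21.2%, 15.9%, 10.6% and 39.7%. By single windows the shares were 34.7%, 21.3% and 28.0% of 75. They were 18.2%, 13.5% and 8.7% of the 10617 windows of tested genes. Of all 32851 promoters listed they were 8.86%, 6.25% and 6.05%. Of 24 YY1 matches in the windows of the 69 genes, 16 began at or after the start (66.7%, against 47.2% of matches in tested genes). Of GABPA and NRF1 matches, 61.3% and 64% lay within 100 bases before the start (53.1% and 54.7% in tested genes). The letters of the 3 motifs can overlap other sites, and a match is a description of sequence only.

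The remaining stalk genes showed no shared direction. Mrpl10, which anchors the stalk, had 28.6, 29.7 and 24.9 FPKM in water and 35.5, 33.8 and 28.5 in extract. Extract 3 overlapped the water libraries, and the log2 fold change was 0.22 ± 0.13 (SE; limma adjusted p = 0.617). Mrpl11, at the base of the stalk, had 8.93, 7.09 and 7.11 FPKM in water and 6.73, 7.31 and 7.36 in extract, all but water 1 lying close together. Mrpl44, a subunit with a fold related to RNase III, had 10.5, 11.9 and 11.8 FPKM in water and 9.69, 10.7 and 11.8 in extract. Human variants of its orthologue cause a mitochondrial cardiomyopathy. The intervals of the log2 fold change were -0.25 to 0.40 for Mrpl12, -0.07 to 0.52 for Mrpl10, -0.38 to 0.19 for Mrpl11 and -0.35 to 0.19 for Mrpl44.

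No Mrps gene reached unadjusted p below 0.05 by limma, and the smallest adjusted p was 0.662. Mrps2, of bacterial descent, had 21.7, 26.1 and 22.8 FPKM in water and 19.8, 16.5 and 23.6 in extract. Extract 3 exceeded water 1 and 3 (log2 fold change -0.24, SE 0.15; unadjusted p = 0.157, and 0.0467 without extract 3). Mrps22, a mitochondria-specific subunit, was the 1 Mrps gene whose groups did not overlap, with 9.39, 9.31 and 9.10 FPKM in water and 11.2, 10.1 and 10.0 in extract. Its log2 fold change was 0.16 ± 0.10 (SE; limma adjusted p = 0.681). Mrps24, whose protein lines the entry of the messenger RNA, had 61.0, 39.7 and 39.3 FPKM in water and 41.6, 37.7 and 37.8 in extract, so the lower extract mean went with a single high water library. Mrps16, also of bacterial descent, had 41.5, 35.5 and 26.6 FPKM in water and 30.9, 28.2 and 32.5 in extract. Mrps12, of the decoding centre, had 30.9, 29.3 and 26.4 FPKM in water and 31.4, 29.7 and 32.7 in extract. Mrps34, a mitochondria-specific subunit whose mutation in mice impairs heart and liver, had 38.2, 28.8 and 26.6 FPKM in water and 30.03, 30.37 and 37.60 in extract, the high values coming from 1 library of each group.

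Mrps18a, Mrps18b and Mrps18c are related to a single bacterial protein and are placed differently in the mammalian ribosome. Only Mrps18c takes the bacterial position, so the other 2 are counted below as mitochondria-specific. Mrps18b was the most abundant, with 55.2, 42.7 and 36.9 FPKM in water and 47.5, 38.7 and 41.5 in extract. Mrps18a had 34.2, 33.6 and 24.4 FPKM in water and 29.98, 36.80 and 25.49 in extract. Mrps18c had 37.6, 29.6 and 23.3 FPKM in water and 33.0, 30.5 and 26.2 in extract. The groups overlapped for all 3 genes, with log2 fold changes of -0.06, 0.00 and 0.01. Mrps30, the other large subunit protein with an Mrps name, had 20.7, 17.9 and 19.9 FPKM in water and 19.9, 20.8 and 21.3 in extract. Mrps36, the dehydrogenase adaptor, had 15.7, 13.9 and 10.3 FPKM in water and 12.1, 13.8 and 16.3 in extract (log2 fold change 0.09, SE 0.18).

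Large and small subunit genes were set side by side. The median log2 fold change was -0.01 over the 49 Mrpl genes (22 positive, 27 negative) and 0.00 over the 29 Mrps genes (14 positive, 15 negative), a difference of -0.01. Placing Mrps18a and Mrps30 in the large subunit and leaving out Mrps36 gave -0.01 for 51 large and -0.01 for 26 small subunit genes. Within the large subunit the median was -0.02 over 30 proteins of bacterial descent and 0.00 over 21 mitochondria-specific ones, and within the small subunit -0.01 over 16 and 0.00 over 10. By library, the Mrpl median of log2(FPKM + 1) exceeded the Mrps median by 0.17, -0.05 and 0.03 in water and by 0.21, 0.28 and 0.19 in extract, values that do not overlap. The difference of the means did overlap, at 0.06, 0.01 and 0.10 in water and 0.05, 0.12 and 0.07 in extract. So did the ratio of the summed FPKM, at 1.91, 1.82 and 1.94 in water and 1.88, 2.02 and 1.91 in extract. The medians thus separated the groups where the means and the sums did not, and no test was made of it.

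Many of the genes moved together within the water group. Water 1 was the highest of the 6 libraries for 47 of the 78 genes (60.3%), against 22.2% of all genes tested. It lay above both other water libraries for 62 genes, against 38.9% of all genes tested. Relative to each gene's own mean, the median deviation was 0.20 in water 1, -0.08 in water 2 and -0.09 in water 3 on the log2 scale, and -0.01 in each of the 3 extract libraries. Both subunits moved alike, with 0.20 for Mrpl and 0.21 for Mrps genes in water 1. The extract libraries were closer together, with a median SD of 0.10 on the log2 scale against 0.19 in water, and the water SD was the larger for 62 of 78 genes (79.5%). Over all genes tested these medians were 0.13 and 0.18, and the water SD was the larger for 62.0%. The summed FPKM of the 78 genes was 2329, 1872 and 1824 in water 1, 2 and 3 and 1977, 1955 and 1946 in extract 1, 2 and 3.

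**Figure D3:**
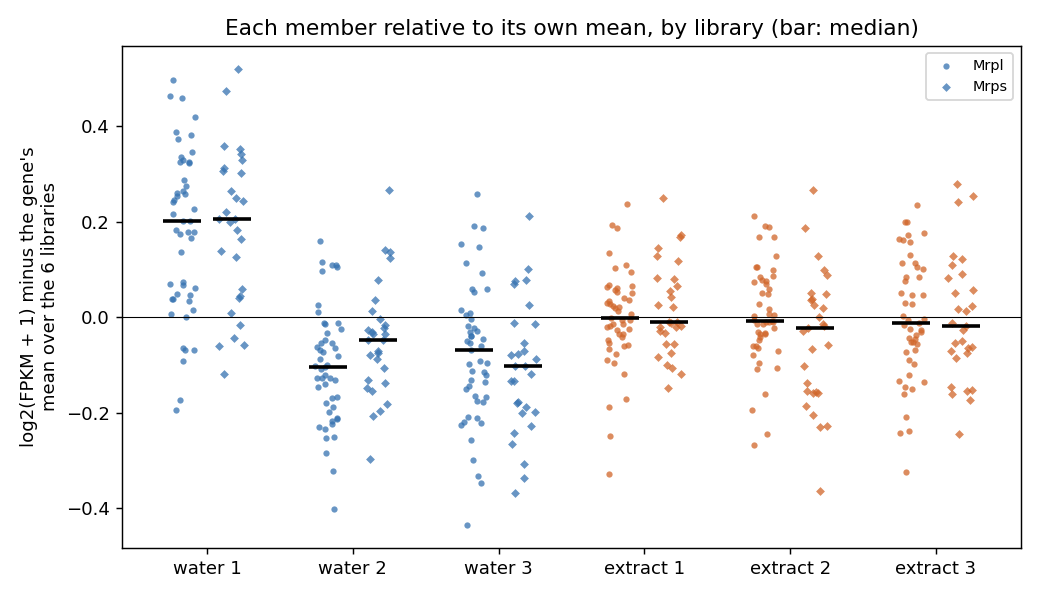
Vertical axis: log2(FPKM + 1) of each gene minus its mean over the 6 libraries; circles are Mrpl and diamonds Mrps genes, 1 point per gene, and bars are medians. Most genes of both subunits lie above 0 in water 1 (medians 0.20 and 0.21) and below 0 in water 2 and 3, while the extract libraries sit between them.

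Transcript length went with the excess in water 1. The difference between water 1 and the mean of water 2 and 3 had a median of 0.40 over 17 genes with a longest transcript of up to 1000 bases, 0.28 over 24 of 1000 to 2000 bases, 0.21 over 26 of 2000 to 4000 bases and 0.12 over 11 longer ones. The medians of the other tested genes in the same classes were 0.47, 0.18, -0.02 and -0.13. Across genes, Spearman's rho of length with this difference was -0.39 in the 78 genes and -0.39 in the 10184 tested genes with a length, a description across genes that share libraries. Above 1000 bases the 78 genes thus had a larger median excess in water 1 than other genes of the same class. The classes rest on the longest annotated transcript, which need not be the one expressed. For Mrps26 it has 4278 bases, although the RefSeq gene span runs from 130563757 to 130565394. What such class assignments contribute to the difference was not tested. Mrpl53, a mitochondria-specific subunit named after its values were seen, had 30.91, 20.02 and 17.03 FPKM in water and 23.1, 26.8 and 24.8 in extract. Its log2 fold change was 0.17 (unadjusted p = 0.426 by limma), and 0.41 (unadjusted p = 0.0114) without water 1. The part of water 1 in other results was not tested beyond the values without it.

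**Figure D4:**
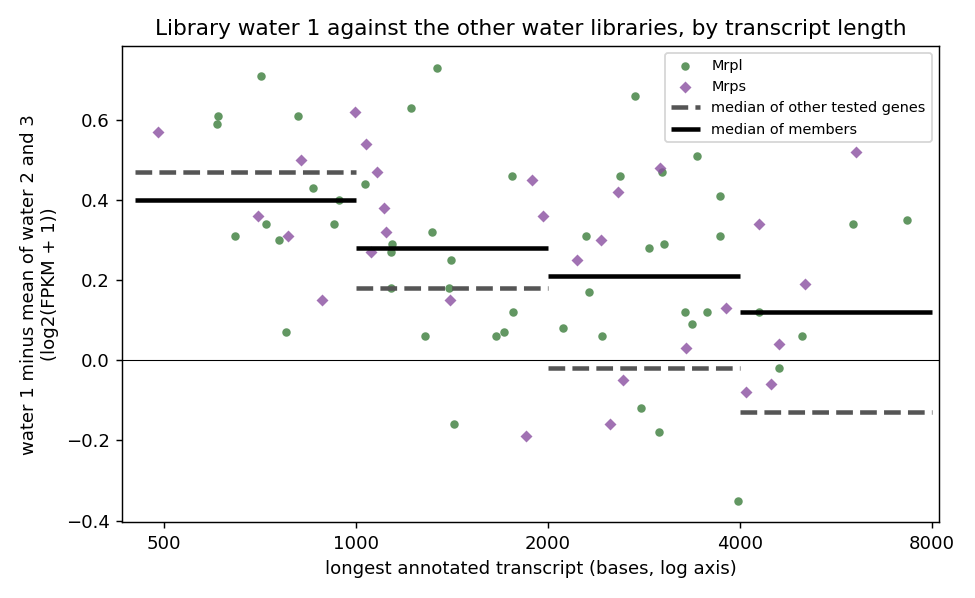
Horizontal axis: longest annotated transcript in bases (log); vertical axis: log2(FPKM + 1) in water 1 minus the mean of water 2 and 3; points are the 78 genes, solid bars their medians per length class and dashed bars the medians of the other tested genes. Both sets of medians decline with length, from 0.40 to 0.12 for the 78 genes and from 0.47 to -0.13 for the others.

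Other genes of the same machinery and its products were counted from lists. The 5 mitoribosome subunits with other names (Dap3, Ptcd3, Chchd1, Aurkaip1 and Gadd45gip1) had 2 positive and 3 negative fold changes, with a median of -0.01, and none had unadjusted p below 0.05. Dap3, the GTP-binding subunit of the small subunit, had 25.4, 19.1 and 23.4 FPKM in water and 21.3, 17.7 and 20.6 in extract. Of 25 tested assembly factors 18 were positive (median 0.06), of 16 translation factors 12 (median 0.09), and of 16 mitochondrial aminoacyl-tRNA synthetases 13 (median 0.10), against 5908 of 10282 genes tested and a median of 0.03. After median centring these numbers were 14, 9 and 11, and the assembly factors came to 13 without water 1 and 13 (median 0.01) without extract 3. Among these 3 lists 0 genes passed the adjusted threshold. A single gene reached unadjusted p below 0.05 by limma, against 10.3% of all genes tested. It was Sars2, the mitochondrial seryl-tRNA synthetase, at 4.51, 4.91 and 4.45 FPKM in water and 5.77, 6.95 and 7.40 in extract, without overlap (log2 fold change 0.45, SE 0.12, limma adjusted p = 0.239, unadjusted p = 0.00627).

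Of 14 tested genes for mitochondrial transcription and RNA maturation, 5 were positive and 9 negative, with a median of -0.02. Limma's unadjusted p was below 0.05 for 1 higher and 2 lower genes, where the shares over all genes tested were 6.50% and 3.82%. The 2 genes with the smallest p are described here, both lower, and the higher gene had a larger p. Tfb2m, a transcription factor of mitochondrial DNA, had 20.1, 19.6 and 22.6 FPKM in water and 15.5, 15.3 and 15.1 in extract, again without overlap (log2 fold change -0.41, limma adjusted p = 0.234, unadjusted p = 0.00474). Hsd17b10, a subunit of mitochondrial RNase P that is also a dehydrogenase of isoleucine breakdown, had 184.5, 137.9 and 171.8 FPKM in water and 119.3, 115.7 and 125.8 in extract (unadjusted p = 0.0139). The 11 regulators of mitochondrial biogenesis had a median of 0.01 and none had unadjusted p below 0.05. Among them the coactivator gene Ppargc1a had 3.40, 5.07 and 6.07 FPKM in water and 2.78, 4.74 and 3.33 in extract. The 15 genes for channels, import and chaperones that stand for mitochondrial content had 5 positive and 10 negative fold changes and a median of -0.04.

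The mitochondrial ribosomal proteins were set beside gene groups that share either their location or their kind. Of 81 tested nuclear-encoded subunits of oxidative phosphorylation (OXPHOS), 79 were negative with a median of -0.16, and without water 1 the numbers were 35 positive and 46 negative with a median of -0.02. Of 76 cytosolic ribosomal proteins, 71 were positive with a median of 0.11; the median was 0.33 without water 1 and -0.06 (23 positive, 53 negative) without water 3. Unadjusted p was below 0.05 for 2 of the OXPHOS genes and 0 of the cytosolic ribosomal genes, against 10.3% of all genes tested. None passed limma's adjusted threshold. Without water 1, 61 of the 76 cytosolic ribosomal genes were higher at unadjusted p below 0.05 by limma, against 9.45% of all genes tested. These genes share libraries and are not independent results. Water 1 was the highest library for 71 of the 81 and for 76 of the 76 genes, against 47 of the 78. The 78 mitochondrial ribosomal genes had a median of -0.01 with all libraries, 0.09 without water 1 and -0.06 (26 positive, 52 negative) without water 3, where they were level with the cytosolic group. These differences between groups were not tested.

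**Figure D5:**
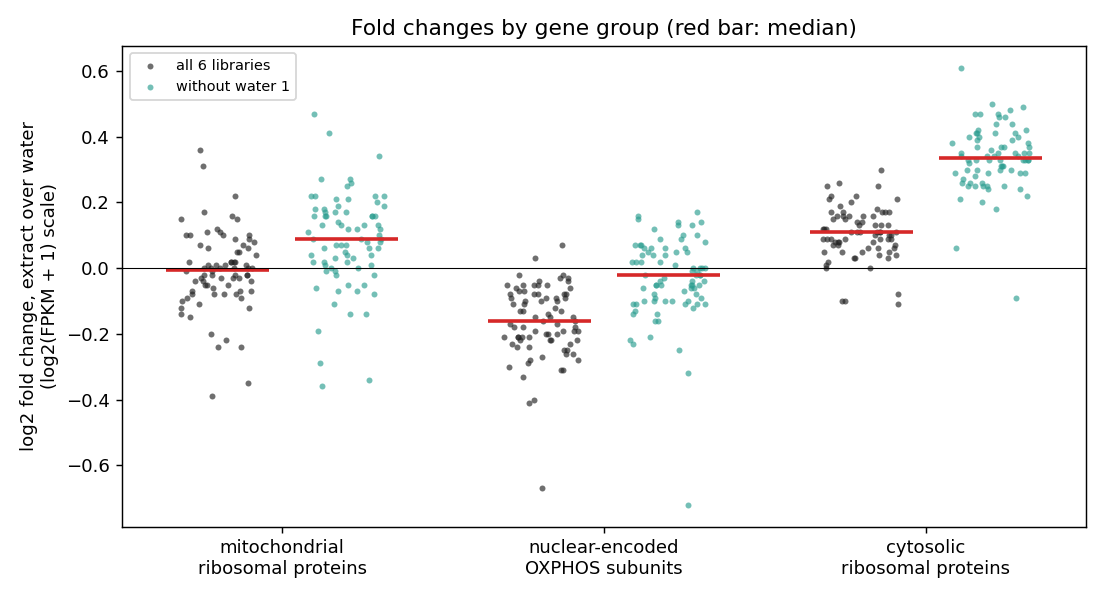
Vertical axis: log2 fold change of extract over water on the log2(FPKM + 1) scale; points are the tested genes of the 3 groups named below the axis, in black with all 6 libraries and in green without water 1, and red bars are medians. The medians with all libraries are -0.01, -0.16 and 0.11 from left to right, and each is higher without water 1, at 0.09, -0.02 and 0.33.

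Several of the genes share a start region with a neighbour read from the other strand. In the GENCODE annotation 18 of the 78 lay head to head, without overlap of the gene spans, with a protein-coding gene whose start was 26 to 935 bases away, and 16 of these partners were tested. Another 15 had such a partner within 1000 bases whose span overlapped theirs at the starts. Among these are Mrpl46 of the large and Mrps11 of the small subunit, which face each other and start 42 bases apart in RefSeq. Mrpl46 had 11.7 ± 1.14 FPKM in water and 12.6 ± 1.25 in extract, and Mrps11 had 12.6 ± 1.75 and 12.5 ± 0.734 (SD, n = 3 each), with overlap between groups in both genes. Mrps12 starts 172 bases from Sars2. Their log2 fold changes were 0.12 and 0.45, and Mrps12 overlapped between groups where Sars2 did not. Of these 16 partners, which leave out those overlapping at the starts, 4 had unadjusted p below 0.05 by limma. The share over all genes tested was 10.3%, and 0 of the 16 passed the adjusted threshold. Besides Sars2 the 4 were Mitd1 beside Mrpl30 (2.81 ± 0.432 against 4.54 ± 1.08 FPKM), Klc4 beside Mrpl2 (21.9 ± 1.88 against 17 ± 0.786 FPKM) and Zfp189 beside Mrpl50 (2.09 ± 0.129 against 1.58 ± 0.176 FPKM), each chosen after its values were seen. Mrpl30 and Mrpl2 overlapped between the groups, while Mrpl50 was 1 of the 5 genes higher in all extract libraries and Zfp189 was lower in all extract than in all water libraries. Among partners overlapping at the starts, limma's unadjusted p was 0.0378 for Twnk beside Mrpl43. It was 0.218 to 0.806 for Tcp1, Ndufs6, Ndufb5, Rab6a and Gga3. Tmem63b and Wdfy1, which overlap the starts of Mrpl14 and Mrpl44 without shared exon bases, were not examined. Of the 78 genes 15 shared exon bases with a protein-coding gene on the opposite strand, so their single values are less certain where the counting did not use strand.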

How the data were processed

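The authors deposited 1 table with a value per gene and library and no named unit. It was read as FPKM made by the authors, since values weighted by the longest GENCODE M21 transcript summed to 118.1% to 120.8% of a library's fragments while plain sums differed. Per the submitters' processing notes the tools were RSEM 1.2.12, HISAT2 2.0.4, DESeq2 1.4.5 and Bowtie2 2.2.5, without roles, and the build was GRCm38. FPKM removes library size. How reads shared by similar genes were divided is not known here, and depth is unknown.

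Of 22899 rows, 5161 were blank and 11 symbols turned into dates were restored by gene ID. The 10282 genes that had 1 FPKM or more in 3 or more libraries were fitted with limma 3.58.1 in R 4.3.3 on log2(FPKM + 1) with a trended prior variance and no block. Benjamini-Hochberg adjustment ran over all genes tested. The fit was tested on simulated data. Named genes were the 6 Mrpl and 6 Mrps genes with the smallest p, the 3 of each with the highest mean, and 10 chosen for their roles. Genes, lists and motifs were chosen with earlier results of these data known. Alternatives covered scaling, pseudocount, filter, library weights, a block for replicate number and the omission of each library in turn. No message encoded by mitochondrial DNA was analysed here.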

Additional observations from a re-analysis of the deposited data

How the results depend on the processing

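None of the 78 genes passed limma's adjusted threshold under any alternative; the smallest adjusted p in any other fit was 0.0973. Of 308 refitted fold changes of the 22 named genes 288 kept their sign and 20 reversed, and 15 genes never reversed. Mrps18a and Mrps18c (0.00 and 0.01) were -0.04 and -0.04 after median centring, -0.03 and -0.03 with a common sum, and -0.03 and -0.02 after quantile normalization. Mrps18b (-0.06) was 0.08 with library weights. Without 1 library at a time, values ran from -0.14 to 0.01 for Mrpl11, -0.04 to 0.20 for Mrpl52, -0.15 to 0.12 for Mrps18a, -0.19 to 0.09 for Mrps18b, -0.16 to 0.17 for Mrps18c, -0.03 to 0.22 for Mrps34 and -0.07 to 0.21 for Mrps36. Genes passing over all genes tested numbered 5, against 0 after median centring, 2 after quantile normalization, 2 with a pseudocount of 0.1, 0 without a filter, 133 with library weights (weight of water 1 0.302) and 0 to 48 without 1 library. Of the 78 genes, those higher at unadjusted p below 0.05 numbered 2 (6.50% of all genes tested), against 1 after median centring (4.79%) and 0 to 3 without 1 library (4.12% to 9.45%). Those lower numbered 2 (3.82%), against 0 to 3 (2.8% to 6.05%). The median over the 78 was 0.07 with library weights and -0.06 to 0.09 without 1 library, and over the Mrps genes -0.07 to 0.09. A replicate block, for numbers that did not pair the libraries (correlations of deviations -0.02, -0.18 and 0.12), left 0 genes past the threshold and 0 higher (5.6% of all genes tested) and 2 lower (3.37%) among the 78. The causes were not tested. Depth is unknown and 3 libraries per group limit the precision.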
